A study of Homo sapiens with 16 samples.

Results

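The genes CDKN2A, CDKN2B, MTAP and KLHL9 lie on the short arm of chromosome 9, in band 9p21, a region that is often lost in glioblastoma. They were taken from the read count tables by gene symbol. All 4 were listed among the 20626 genes counted in the cell line U343. Values for 3 of them were listed among the 20314 genes counted in the cell line U251, so CDKN2A was not analysed there.

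U251 and U343 are established human glioblastoma cell lines. Both were transfected with a mimic of the microRNA miR-137 or with a negative control mimic at 25 nM, and were harvested at 48 h. RNASeq measured total RNA, and RIPSeq measured RNA recovered with antibodies to the poly(A) binding protein PABP. Each of the 8 combinations of cell line, assay and transfection had 2 libraries, which gave 16 in all. Every group received a mimic, so an untransfected level was not measured. The U251 cDNA was primed with random hexamers and tagged with the Nextera kit of Epicentre. The U343 cDNA was made with the TotalScript kit and tagged with the Nextera kit of Illumina, so cell line and library preparation cannot be told apart. The sources used here do not say that the libraries of a group came from separate cultures, and the p-values therefore measure only the spread between these libraries.

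CDKN2A encodes p16INK4a, which binds CDK4 and CDK6 and blocks their activation by D-type cyclins, and, from another reading frame, p14ARF, which restrains the ubiquitin ligase MDM2. CDKN2B encodes p15INK4b, a second inhibitor of the same kinases. MTAP, the next gene, encodes the enzyme that cleaves methylthioadenosine, a by-product of polyamine synthesis, and starts the salvage of its methionine. KLHL9 encodes an adaptor of a cullin-3 ubiquitin ligase that acts on the kinase Aurora B in dividing cells. In tumours with a 9p21 deletion, MTAP and sometimes KLHL9 are lost together with the CDKN2 genes.

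In the hg18 coordinates of the tables, KLHL9 spans chr9:21321018-21325429 and MTAP spans chr9:21792635-21855969. CDKN2A follows at chr9:21957751-21984490 and CDKN2B at chr9:21992902-21999312. The gap between MTAP and CDKN2A is 102 kb and that between CDKN2A and CDKN2B is 8.41 kb. CDKN2B lies with all of its 6411 bases inside CDKN2BAS (also called ANRIL), a long non-coding RNA gene at chr9:21984790-22111091. The strand listed with the counts took 1 value over the U251 genes and 2 values over the U343 genes. The sources used here do not say that strand was used in counting, so reads of CDKN2B and of CDKN2BAS cannot be told apart where they overlap. The part of this difference between the lines in the CDKN2B result was not tested. MTAP has 2 pseudogenes by symbol in the RefSeq annotation of GRCh38.p14, and how reads shared with them were counted is not given in the sources used here. CDKN2A and CDKN2B are similar in sequence, and the same holds for reads that they share.

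The agent transfected is shown by the mature sequence of miR-137, from RefSeq (GRCh38.p14), with the seed, bases 2 to 8, in capitals. The sequence of the mimic itself is not given in the sources used here.
hsa-miR-137-3p: uUAUUGCUuaagaauacgcguag

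Depth differed between the experiments. The totals, in megareads (M), were 10.2 to 18.2 M counted reads in U251 RNASeq, 22.4 to 30.7 M in U251 RIPSeq, and 37.7 to 45.1 M in the U343 libraries. The pair of U251 RIPSeq control libraries stood apart from each other (chi-square averaged over genes, 216.01), and so did the U343 RNASeq miR-137 libraries (174.65), whereas the other groups had values between 2.46 and 21.92. Levels are given below as CPM, the read count scaled to 1 megaread of library total, with these totals scaled by TMM factors over the 16 libraries, and as mean ± SD of 2 libraries. Overlap of groups is described for 2 libraries against 2, and the share of all genes without overlap was not determined. Of 8 glioma and astrocyte markers, 8 reached 1 CPM in both RNASeq control libraries of either line. GFAP, the astrocyte filament gene, was at 29.8 and 31.2 CPM in U251 and at 4510 and 4720 CPM in U343. Of the 8 markers of other cell types in both tables, 1 reached that level in U251 (CD68) and 3 did in U343 (CD68, CDH5 and KRT5). Their summed level was 8.80 and 10.7 CPM in U251 and 1310 and 872 CPM in U343. The epithelial keratin KRT5 gave 1290 and 839 CPM of the latter, while PTPRC, CD3E and EPCAM, which define blood cells, T cells and epithelium, had at most 9 reads per library in either line. The part of this difference in the results on the cell lines was not tested.

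**Figure D1:**
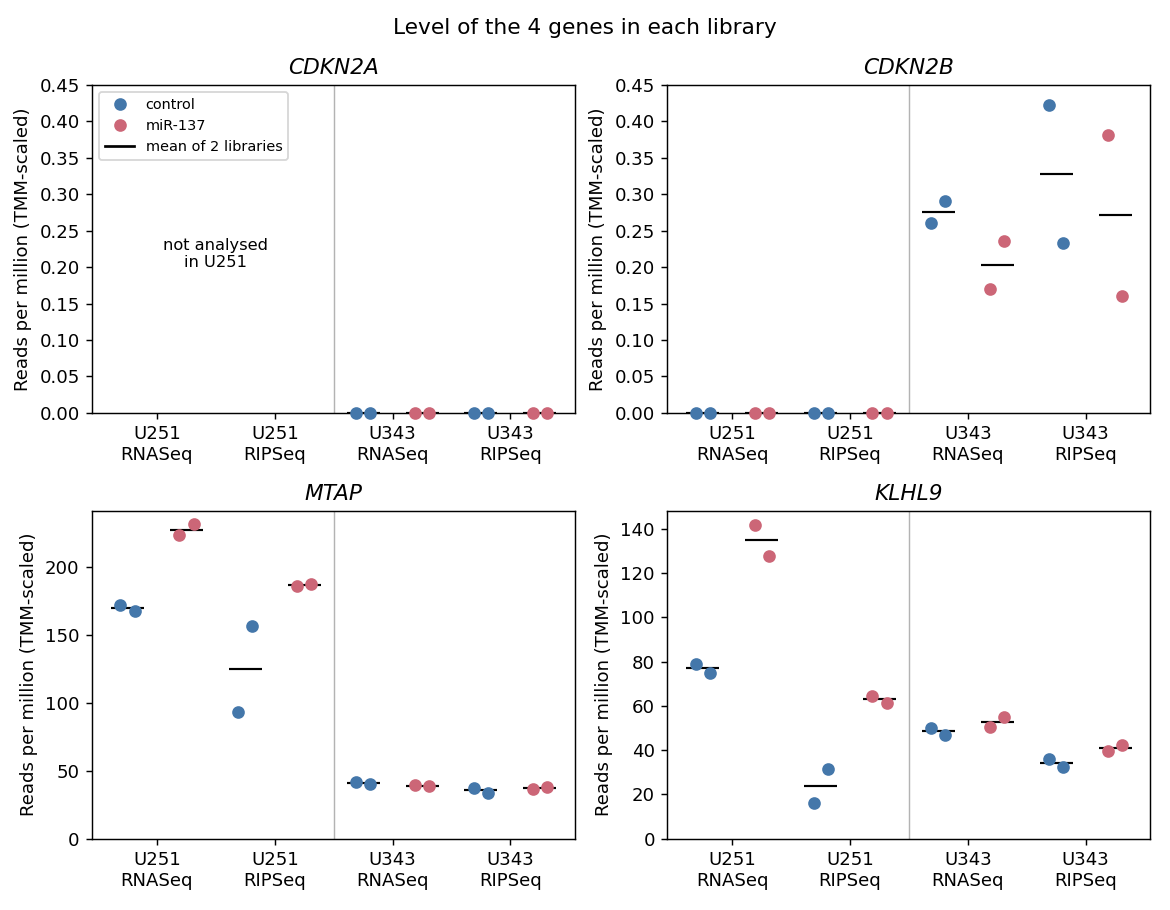
Level of each gene in CPM (y axis, linear, TMM-scaled) by cell line and assay (x axis), with control libraries in blue, miR-137 libraries in red and the mean of 2 libraries as a bar. CDKN2B sat at 0 in the 8 U251 libraries and between 0.161 and 0.422 in the 8 U343 libraries, and CDKN2A at 0 in the 8 U343 libraries, whereas MTAP and KLHL9 were present in every library.

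The baseline of the CDKN2 genes was described first. CDKN2A had 0 reads in each of the 8 U343 libraries, against a total of 332.7 M counted reads. A count of 0 over these libraries allows a level of up to 0.0093 CPM by a floor of 3 counts, and the exact Poisson 95% interval ended at 0.0114 CPM. Both cover counting error only. A total of 456 of the 20626 genes, or 2.21%, shared this absence of reads in all 8 U343 libraries. No p16INK4a or p14ARF transcript was therefore detectable at this depth in U343 cells, with either mimic and in either assay. RNA counts do not separate a lost gene from a silent one, which was not tested here. In these bulk libraries, fewer cells with a transcript and less of it per cell cannot be told apart either.

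CDKN2A was among 312 genes with a row in the U343 tables only. Of these, 11 had 0 reads in the U343 libraries (3.53%), and their median was 3093 reads over the 8 libraries. The corresponding share among the genes of both tables was 2.19%. The lack of a CDKN2A value in U251 therefore does not describe its level there.

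CDKN2B was measured in both lines, with reads in U343 and none in U251. In the U343 RNASeq libraries it had 12 and 11 reads in controls and 7 and 10 reads with miR-137. In the U343 RIPSeq libraries it had 18 and 9 reads in controls and 14 and 6 reads with miR-137. The ranges of control and miR-137 libraries overlapped in RIPSeq, and in RNASeq the miR-137 counts were the lower ones by 1 read or more.

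In U251, CDKN2B had 0 reads in each of the 8 libraries, against 160.6 M counted reads. This put it among 366 of 20314 genes (1.8%) with 0 reads in all 8 U251 libraries. The floor of 3 counts was 0.0185 CPM and the upper end of the exact Poisson 95% interval was 0.0227 CPM. Over the 8 U343 libraries, 87 reads gave 0.27 CPM, with an interval from 0.216 to 0.333 CPM. The U343 level was thus 14.6 times the floor over the U251 libraries, with 8 libraries of each line. Between control libraries alone it was 3.07 times the floor in RNASeq (23 reads against 0). In RIPSeq controls it was 5.73 times the floor (27 reads against 0). These ratios leave out the counting error of the U343 reads and are not lower bounds.

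CDKN2B did not pass the filter on low counts in the fit of the lines, so its difference had no test there. With no filter beyond 1 read, edgeR's quasi-likelihood test gave an adjusted p of 0.00609, and DESeq2 gave an adjusted p of 0.0471. With the U251 libraries at 0, both rest on the U343 reads alone and are given as a description.

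The level of CDKN2B was set beside genes that glioma cells are taken not to express. Of 358 olfactory receptor genes, 14 (3.91%) were at 0 in all 8 U251 libraries, and their median was 7 reads over these libraries, or 0.0431 CPM. The same genes had a median of 0.0124 CPM in U343, where the 95th percentile was 0.0439 CPM. CDKN2B, at 0.27 CPM, was above that percentile in U343, and in U251 it was below the olfactory median. CPM is not scaled to gene length, and reads of CDKN2B cannot be told apart from those of CDKN2BAS where they overlap. The comparison therefore does not separate expression of CDKN2B from reads of CDKN2BAS.

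Counts of 0 in U251 were also compared between genes that do and do not lie wholly inside another gene, as CDKN2B does. Among genes that lie wholly inside another gene and that had at least 87 reads in U343, as CDKN2B had, 21 of 398 (5.28%) were at 0 in all 8 U251 libraries. Among genes that do not lie inside another gene, 15 of 14188 (0.106%) were. Limited to genes with at most 2 times the U343 reads of CDKN2B, these were 2 of 77 (2.6%) and 4 of 786 (0.509%). The part of this difference in the CDKN2B result was not tested.

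CDKN2BAS, the antisense gene of the locus, followed the same order of the lines. It had 1 and 0 reads in the U251 RNASeq controls and 72 and 54 reads in the U343 RNASeq controls. In RIPSeq controls it had 1 and 0 reads in U251 and 54 and 36 reads in U343. Each U343 library held at least 36 reads and no U251 library more than 1. Over 8 libraries of each line, 471 reads against 4 gave a ratio of 59.3, with an exact 95% interval from 23.0 to 218. It passed the filter on low counts through the U343 libraries alone, so its fitted fold change is not given. CDKN2BAS is not nested in another gene, and its 4 reads in U251 correspond to 0.0246 CPM, below the olfactory median.

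MTAP was expressed in both lines, 102 kb from CDKN2A. In U251 RNASeq controls it had 2812 and 2892 reads, or 172 and 168 CPM. In U343 RNASeq controls it had 1919 and 1519 reads, or 41.7 and 40.1 CPM. The groups did not overlap, and the U251 libraries were the higher ones.

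KLHL9 was present at 79.1 and 74.8 CPM in the U251 RNASeq controls (1295 and 1288 reads). In the U343 RNASeq controls it was at 49.9 and 47.0 CPM (2297 and 1780 reads). These groups did not overlap either, again with U251 above U343. A count per gene does not show which exons held the reads, so a partial loss of MTAP or KLHL9 was not tested.

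Both genes passed the test between the lines in RNASeq controls, in which 84.8% of the 14787 genes tested were called and 39.9% were called lower in U343. MTAP was lower in U343 by a log2 fold change of -2.07 (SE 0.09, adjusted p = 6.33e-08, edgeR). KLHL9 was lower by a log2 fold change of -0.69 (SE 0.09, adjusted p = 7.64e-05, edgeR). The median over all genes was 0.10, and 0.21 under upper-quartile scaling, in which both genes remained lower in U343. A call in this comparison is a common event.

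In RIPSeq controls, with 35.4% of genes called, 19% higher and 16.5% lower, MTAP was again lower in U343 (log2 fold change -1.91, SE 0.36, adjusted p = 0.0134, edgeR). KLHL9 was not called there, and its fold change had the other sign (0.42, SE 0.42, adjusted p = 0.466, edgeR). The lower level of KLHL9 in U343 was thus called in total RNA and not in PABP-bound RNA, and the difference between the assays was not tested here. The U251 RIPSeq controls, at 15.9 and 31.7 CPM for KLHL9, were the pair that stood apart.

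The 4 genes were then placed on a map of their neighbours, which comprised all 46 genes that start within 5 Mb of CDKN2A (45 of them in the U251 tables). In either line 18 genes reached 1 CPM in both RNASeq control libraries, a share of 40.0% in U251 and 39.1% in U343. Over all genes these shares were 58.6% and 62.4%. Of the region, 16 genes reached that level in both lines. They were CNTLN, ADAMTSL1, RRAGA, HAUS6, DENND4C, RPS6, ACER2, MLLT3, KIAA1797, KLHL9, LOC554202, MTAP, DMRTA1, C9orf82, PLAA and IFT74. IFNE and ELAVL2 reached it in U251 and not in U343, and SH3GL2 and CDKN2BAS in U343 and not in U251. The difference of ELAVL2 between the lines was not called (log2 fold change -0.59, SE 0.30, adjusted p = 0.0914, edgeR). IFNE was at 1.34 and 1.16 CPM in U251 and at 0.217 and 0.317 CPM in U343. It passed the filter on low counts through the U251 libraries alone, so its fitted fold change is not given. IFNE lies with all of its 1472 bases inside LOC554202, so reads of these genes cannot be told apart where they overlap.

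Next to the CDKN2 genes in U251, MTAP was the nearest present gene on one side. On the other side it was DMRTA1, a transcription factor gene of the doublesex family. The ends of MTAP and DMRTA1 that face each other are 581 kb apart. Between them lie C9orf53, CDKN2A, CDKN2BAS and CDKN2B. Of these, CDKN2BAS was itself present in U343, at a mean of 1.5 CPM in the RNASeq controls. C9orf53 had 0 reads in all 16 libraries. DMRTA1 was at 24.8 ± 1.81 CPM (n = 2) in the U251 RNASeq controls and at 4.00 ± 0.950 CPM (n = 2) in those of U343.

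Between KLHL9 and MTAP, the present genes were LOC554202, the host of MIR31, and in U251 IFNE. LOC554202 was at 11.3 ± 0.109 CPM (n = 2) in U251 and 6.22 ± 0.807 CPM (n = 2) in U343. In U251, 4 region genes were at 0 in all 8 libraries, namely CDKN2B, C9orf53, IFNA4 and IFNA10. In U343 these were CDKN2A, C9orf53, IFNA5 and MIR31. The corresponding share of the region, 8.89% in U251 and 8.70% in U343, stood beside 1.8% and 2.21% of all genes, and 14 of the region's genes are interferon alpha or omega genes with few reads.

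Reads on these interferon genes are given as a description of low counts nearby. Unlike CDKN2B, they do not lie inside another gene of the region, so they do not test its absence of reads in U251. Over 8 libraries, the 14 interferon alpha and omega genes held 129 reads in U251 and 107 in U343, and 2 and 1 of them were at 0. In the first U251 RIPSeq control library they held 51 reads, and 314 of 358 olfactory receptor genes had a read there. CDKN2B had 0 reads in that library too, and CDKN2BAS had 1.

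**Figure D2:**
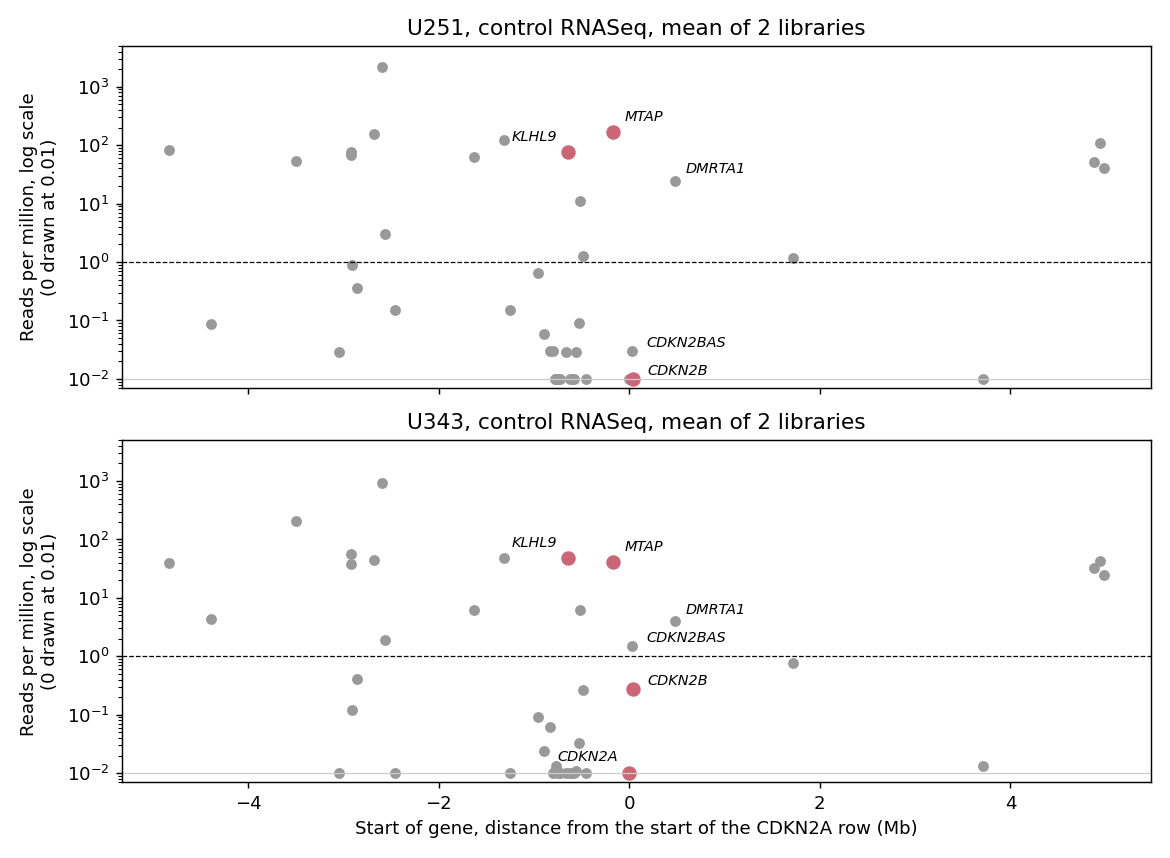
Mean level in the RNASeq control libraries (y axis, CPM on a log scale, with 0 drawn at 0.01) by distance of each gene's start from that of CDKN2A (x axis, Mb), for U251 above and U343 below. Red points are the 4 genes, grey points their neighbours and the dashed line is 1 CPM. In U251, CDKN2B sat at the bottom between MTAP (170 CPM) and DMRTA1 (24.8 CPM), and in U343 CDKN2A did so, with CDKN2B at 0.276 CPM.

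The response of the 4 genes to miR-137 was examined next. CDKN2A had 0 reads with either mimic in U343, and CDKN2B had 0 reads with either mimic in U251, so miR-137 did not bring either to a detectable level there. In U343, CDKN2B was at 0.276 ± 0.0211 CPM (n = 2) in RNASeq controls and at 0.203 ± 0.0467 CPM (n = 2) with miR-137. Its log2 fold change of -0.44 (SE 0.40, adjusted p = 0.486, edgeR) did not pass the threshold. The ratio of the summed reads was 0.742, with an exact 95% interval from 0.372 to 1.45. In U343 RIPSeq the summed reads gave 0.813 (interval 0.432 to 1.51), and the log2 fold change was -0.29 (SE 0.50, adjusted p = 0.654, edgeR). Changes within these intervals were not detectable at this depth.

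In U251 RNASeq, MTAP rose from 172 and 168 CPM in controls to 224 and 232 CPM with miR-137. KLHL9 rose from 79.1 and 74.8 CPM to 142 and 128 CPM. For both genes the miR-137 libraries were above both controls. The log2 fold change of MTAP was 0.47 (SE 0.125, adjusted p = 0.00586, edgeR), a 1.38-fold rise. That of KLHL9 was 0.86 (SE 0.13, adjusted p = 8.66e-05, edgeR), a 1.81-fold rise.

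Thus 2 of 2 genes tested were called higher in this experiment, in which 57.7% of 13052 genes were called, 28.7% higher and 29% lower. The call of MTAP was lost when either control library was left out (adjusted p up to 0.0724, edgeR), and that of KLHL9 held when any 1 library was left out (adjusted p up to 0.000427, edgeR). The rule of the study calls genes lower at more than 2-fold odds in each of 4 library pairs, and it was mirrored here for rises. By the mirrored rule neither was called, with 6.14% of all genes called higher and 2.21% lower.

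In U251 RIPSeq the control libraries held 93.7 and 157 CPM of MTAP and the miR-137 libraries 186 and 188 CPM. KLHL9 was at 15.9 and 31.7 CPM in controls and at 64.5 and 61.5 CPM with miR-137. Both miR-137 libraries exceeded both controls for either gene, but the controls differed widely. Neither gene was called, with log2 fold changes of 0.56 (SE 0.31, adjusted p = 0.394, edgeR) for MTAP and 1.39 (SE 0.39, adjusted p = 0.166, edgeR) for KLHL9, where 1.21% of genes were called and 0.944% were called higher. Of the 2, only KLHL9 had an unadjusted p under 0.05 in edgeR, beside 2828 of all 14087 genes tested. DESeq2 called 0 genes of the 2.

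Without the first control library the log2 fold changes were 0.26 for MTAP and 0.99 for KLHL9, and without the second they were 1.03 and 2.02. Both genes were called in either case, in a fit whose spread rests on the miR-137 libraries, and neither was called when a miR-137 library was left out. The mirrored rule called KLHL9 higher in this experiment, as it did 3.47% of genes, and the rule itself called 1.49% lower. The first control library also held 1106 reads on olfactory receptor genes, against 326 in the second.

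In U343 RNASeq, MTAP was at 41.7 and 40.1 CPM in controls and at 39.3 and 38.5 CPM with miR-137. KLHL9 was at 49.9 and 47.0 CPM in controls and at 50.4 and 54.8 CPM with miR-137. The miR-137 libraries were just below the controls for MTAP and just above them for KLHL9. The log2 fold changes were -0.09 (SE 0.09, adjusted p = 0.521, edgeR) for MTAP and 0.10 (SE 0.10, adjusted p = 0.51, edgeR) for KLHL9. Of the 3 genes tested, edgeR called 0, DESeq2 called 0 and 0 had an unadjusted p under 0.05. Over all 15088 genes tested, edgeR called 20%, 8.31% higher and 11.7% lower, and 5551 had an unadjusted p under 0.05. The rule of the study and its mirror also called 0 of the 4, with 1.51% of genes called higher and 2.88% lower. Without the second miR-137 library, which stood apart from the first, the values were -0.09 and 0.03.

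In U343 RIPSeq, MTAP was at 37.6 and 33.8 CPM in controls and at 36.5 and 38.2 CPM with miR-137, and these ranges overlapped. KLHL9 was at 35.9 and 32.4 CPM in controls and at 39.6 and 42.4 CPM with miR-137, with no overlap. KLHL9 was called higher (log2 fold change 0.26, SE 0.09, adjusted p = 0.0434, edgeR), and it was the 1 gene called of 3 tested, where 56.3% of genes were called, 28.5% higher and 27.8% lower. The call was lost in DESeq2 (adjusted p = 0.106), with no filter (adjusted p = 0.0555, edgeR) and without any 1 library (adjusted p from 0.0599 to 0.221, edgeR). The mirrored rule did not call it, with 4.83% of genes called higher and 3.4% lower. MTAP was not called (log2 fold change 0.07, SE 0.09, adjusted p = 0.583, edgeR).

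The difference of the responses between the lines was tested as an interaction for MTAP and KLHL9, since CDKN2B was at 0 in U251. In RNASeq both were called, among 25.2% of 15550 genes, and 12.7% of genes had a lower response in U343 as these did. The response of MTAP was lower in U343 by a log2 value of -0.56 (SE 0.15, adjusted p = 0.025, edgeR) and that of KLHL9 by -0.76 (SE 0.17, adjusted p = 0.0138, edgeR). Over fits without 1 library the adjusted p ranged from 0.0206 to 0.16 for MTAP and from 0.00247 to 0.0815 for KLHL9. In RIPSeq neither was called (MTAP -0.45, adjusted p = 0.469; KLHL9 -1.08, adjusted p = 0.178, edgeR), with 3.28% of genes called, 2.06% higher and 1.22% lower. At an unadjusted p under 0.05 KLHL9 passed, as did 3353 of all 15959 genes tested, and DESeq2 called neither.

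Without the first U251 RIPSeq control library, the RIPSeq difference of KLHL9 was called (-0.70), and without the second control library both were.

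**Figure D3:**
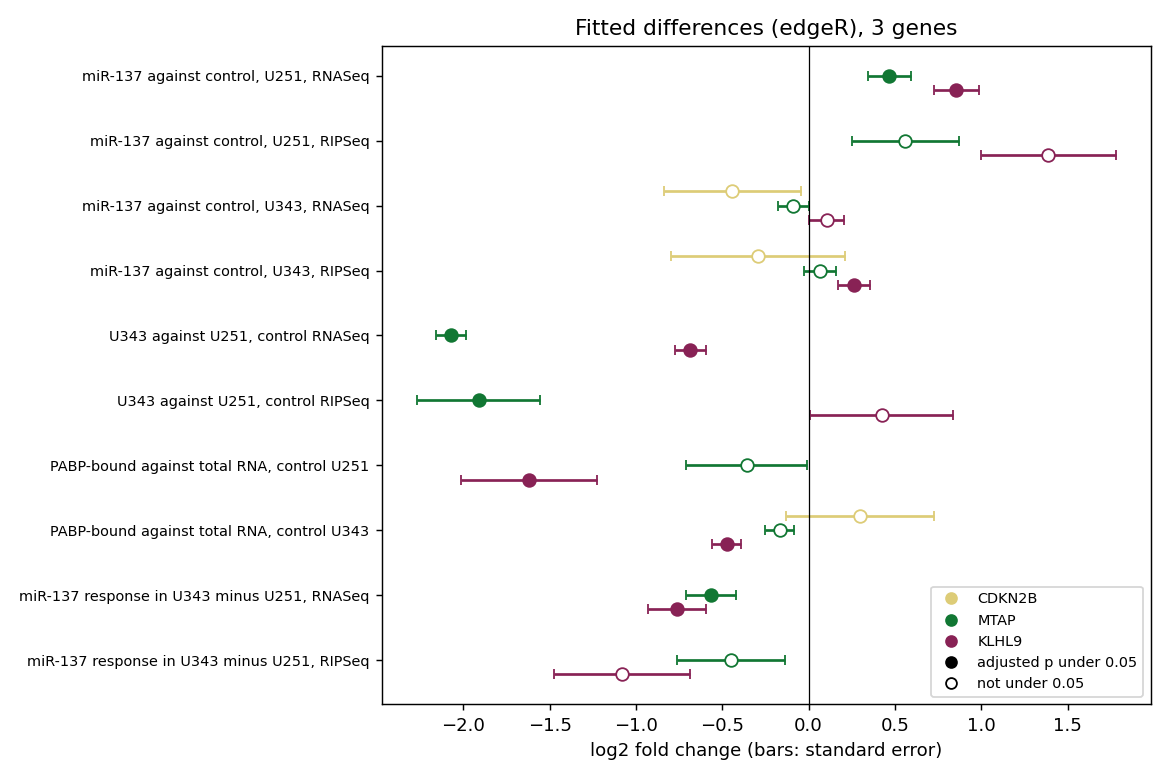
Fitted log2 fold change of CDKN2B, MTAP and KLHL9 (x axis, bars of 1 standard error) in each comparison (y axis), with filled points for an adjusted p under 0.05 in edgeR. MTAP and KLHL9 lay above 0 for miR-137 in U251 RNASeq (0.47 and 0.86), whereas in U343 their responses lay between -0.09 and 0.26.

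The level of each transcript in PABP-bound RNA was compared with that in total RNA in the control libraries. These libraries also enter the comparisons with miR-137 and between the lines. Levels are relative to the other transcripts of a library, so the fraction of a transcript recovered with PABP was not measured. KLHL9 fell from 79.1 and 74.8 CPM in total RNA to 15.9 and 31.7 CPM in PABP-bound RNA of U251. In U343 it fell from 49.9 and 47.0 CPM to 35.9 and 32.4 CPM. The assays did not overlap in either line, and PABP-bound RNA was the lower one.

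KLHL9 was 1 gene called of 2 tested in U251 (log2 fold change -1.62, SE 0.39, adjusted p = 0.0449, edgeR), where 14% of genes were called, 7.87% higher and 6.14% lower. It was 1 of 3 in U343 (log2 fold change -0.47, SE 0.08, adjusted p = 0.00301, edgeR), where 48.6% of genes were called, 24.4% higher and 24.2% lower. The U251 call was lost with no filter (adjusted p = 0.138, edgeR) and without either RNASeq control library (adjusted p up to 0.399, edgeR). The U343 call held in every fit without 1 library (adjusted p up to 0.0263, edgeR). MTAP was not called in U251 (-0.36, SE 0.35, adjusted p = 0.482, edgeR) or in U343 (-0.17, SE 0.08, adjusted p = 0.139, edgeR). In U251 the value of MTAP was -0.08 without the first RIPSeq control library, and -0.78 without the second, where it was called (adjusted p = 0.000447, edgeR). CDKN2B in U343 was not called either, with a log2 value of 0.30 (SE 0.43, adjusted p = 0.591, edgeR).

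Partners of the 4 gene products were followed with lists. The G1 list held the kinases that p16INK4a and p15INK4b inhibit, their cyclins, the retinoblastoma and E2F families, other inhibitors and the MDM2 axis. In U251 RNASeq 15 of its 18 genes were tested, of which 1 rose and 7 fell, beside 28.7% and 29% of all genes, with a median log2 fold change of -0.30 against 0.02 over all genes. CDK6, a target of both inhibitors, fell from 1470 and 1520 CPM to 136 and 115 CPM (log2 fold change -3.53, SE 0.17, adjusted p = 1.62e-09, edgeR). E2F1, an S-phase transcription factor (-2.23), and CDK4 (-0.86) fell too.

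In U343 RNASeq, beside 8.31% of all genes called higher and 11.7% lower, 1 of 17 genes rose and 4 fell, namely CDK6 (-2.78), E2F2 (-1.83), E2F1 (-1.32) and RBL1 (-1.47), a relative of the retinoblastoma protein. The median was -0.25 against 0.02 over all genes. In U343 RIPSeq 3 of 17 rose and 7 fell (median -0.15 against 0.01), beside 28.5% and 27.8% of all genes, with CDK6 at -3.20. CDKN1A, which encodes the CDK inhibitor p21, rose there by a log2 value of 0.81 (SE 0.14, adjusted p = 0.00179, edgeR). In U251 RIPSeq 0 of 16 were called in edgeR, where 1.21% of all genes were (CDK6 -3.53, adjusted p = 0.0798). There 4 had an unadjusted p under 0.05, beside 2828 of all 14087 genes tested. CDKN1A was not analysed in U251. CDK6 and CDK4 had reads in all 16 libraries, so the kinases that the CDKN2 products inhibit were measured in both lines.

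The methionine salvage and polyamine list held enzymes that act before or after MTAP, with 14 genes in the tables. In U251 RNASeq 1 rose and 8 fell (median -0.58 against 0.02 over all genes), beside 28.7% of all genes called higher and 29% lower. Those that fell most clearly were ODC1, the first enzyme of polyamine synthesis (-1.68), ADI1 and MRI1, salvage enzymes that act after MTAP (-1.55 and -1.27), and SMS, spermine synthase (-1.34). In this experiment MTAP rose. PRMT5, a methyltransferase that is sensitive to the substrate of MTAP, was not called (0.23, SE 0.12, adjusted p = 0.125, edgeR).

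In U343 RNASeq 1 of the 14 rose (SRM, spermidine synthase, by 0.68) and 3 fell (GOT1 -1.75, AMD1 -0.71 and SMS -0.53), beside 8.31% and 11.7% of all genes. In U343 RIPSeq 3 rose and 6 fell, beside 28.5% and 27.8% of all genes, with GOT1 at -2.31, ADI1 at -0.91, ODC1 at -0.68 and SMS at -0.93. In U251 RIPSeq 0 of 14 were called in edgeR, beside 1.21% of all genes. There 5 had an unadjusted p under 0.05, beside 2828 of all 14087 genes tested. The list medians in these experiments, in this order, were -0.13, -0.08 and -0.48, against 0.02, 0.01 and -0.02 over all genes.

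The KLHL9 ligase list held CUL3 and RBX1, which form the core of the ligase, the adaptors KLHL13 and KLHL21, and the chromosomal passenger genes AURKB, BIRC5, INCENP and CDCA8. In U251 RNASeq 4 of 8 rose (KLHL21 by 0.62, KLHL13 by 0.51, RBX1 by 0.48 and INCENP by 0.43) and 2 fell (BIRC5 -0.66 and CUL3 -0.42), with a median of 0.26 against 0.02 over all genes. The shares over all genes were 28.7% and 29%. In U343 RNASeq 1 rose and 6 fell (median -0.88 against 0.02), beside 8.31% and 11.7% of all genes, with CDCA8 at -1.48, AURKB at -1.21, INCENP at -1.14 and KLHL21 at -0.78. In U343 RIPSeq 1 rose and 7 fell (median -1.07 against 0.01), beside 28.5% and 27.8% of all genes, with AURKB at -1.48, BIRC5 at -1.42, KLHL13 at -1.32 and CDCA8 at -1.25. In U251 RIPSeq 0 of 8 were called in edgeR, beside 1.21% of all genes. There 1 had an unadjusted p under 0.05, beside 2828 of all 14087 genes tested. The responses of the list differed between the lines in RNASeq for 5 of 8 genes, each lower in U343, where 12.7% of all genes were.

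**Figure D4:**
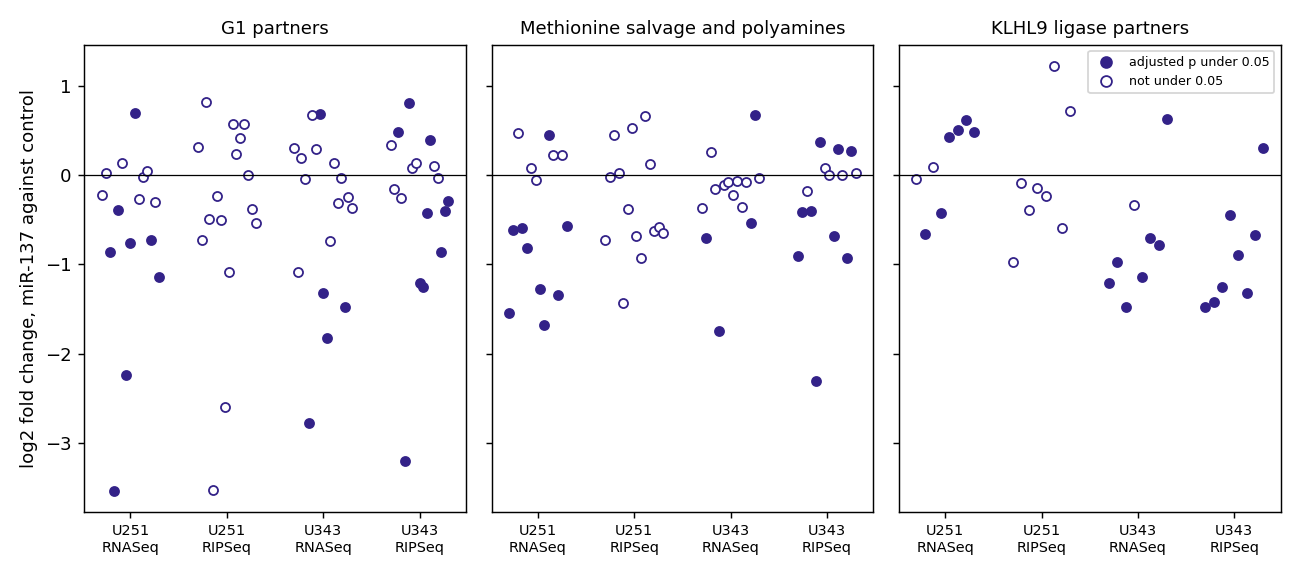
Log2 fold change of each list gene with miR-137 against control (y axis) in the 4 experiments (x axis), for the partners of the CDKN2 products, of MTAP and of KLHL9, with filled points for an adjusted p under 0.05 in edgeR. The lowest point in U251 RNASeq is CDK6 (-3.53), and the KLHL9 partners lay mostly below 0 in U343 (6 and 7 of 8 called lower).

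Between the lines, in RNASeq controls, 2 genes of the methionine salvage list were called higher in U343 and 10 lower, among 14. MTAP was lower too. Of the KLHL9 ligase list 5 were called higher and 3 lower, among 8, and of the G1 list 6 were called higher and 7 lower, among 16. In the same fit 44.9% of all genes were called higher and 39.9% lower. Of the 9p21 region, 3 genes were called higher and 17 lower, among 23 tested, with a median of -0.88 against 0.10 over all genes. The 23 include genes that passed the filter on low counts only through the line where they are higher, such as CDKN2BAS and IFNE. Their direction was fixed by the filter, so the region counts and median are a description.

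The genes whose pattern was most like that of MTAP and KLHL9 were found by Pearson's r of log2(CPM + 1) over the 8 group means, among 14524 genes with at least 1 CPM in some group. For MTAP these were GSC, ARMCX5 and C8orf48, each with r = 0.998. Like MTAP they were higher in U251, but in U343 they were at or below 0.0354 CPM. For KLHL9 these were FNIP2 (r = 0.985), ZNF398 (r = 0.981) and MLLT10 (r = 0.975). MTAP and KLHL9 had r = 0.548 with each other. The points share cell line and library preparation, and the values are a description.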

How the data were processed

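The deposited values are raw read counts per gene in 16 libraries. The authors made them by RMAP alignment to hg18 and by merging the RefSeq transcripts of a gene into 1 model. Groups follow the labels (line, assay, mimic). Depth was the sum of counts, and intervals and floors (3 counts; exact Poisson or Clopper-Pearson, 95%) cover counting error only, since reads are not independent molecules.

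From these counts, differences were fitted with edgeR 4.0.16 (quasi-likelihood F test, TMM factors, filterByExpr, R 4.3.3), with Benjamini-Hochberg adjustment over all genes tested and a threshold of 0.05, in 4 libraries (8 for interactions). Alternatives were DESeq2 1.42.0, upper-quartile factors, no filter beyond 1 read, a replicate block, U343 thinned to the U251 depth, the RIPSeq controls for the lines, each library left out, and the study's Fisher rule (odds ratio over 2, adjusted p under 0.001, all 4 pairs; mirrored here for rises). The fits were tested on simulated counts with 200 genes changed 4-fold, of which 71% to 100% were recovered over the 10 comparisons, with 3 to 13 false calls. The changed genes were drawn from those with higher counts. Recovery of smaller changes, or of genes with as few reads as CDKN2B, was not tested.

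Region genes start within 5 Mb of CDKN2A. Genes were named where they are among the 4, reach 1 CPM in a control group of the region, are among the 4 smallest adjusted p-values of a list, or are the 3 most alike in pattern. CDKN1A, PRMT5 and list members beyond these were named after their values were seen, and 1 list gene is not reported here by name. The 4 genes and all lists were chosen with earlier results of these data known. The labels do not say whether same-numbered libraries were paired (correlations of their deviations from -0.196 to 0.28, with 2 pairs each).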

Additional observations from a re-analysis of the deposited data

Results flagged for a closer look

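The responses of MTAP and KLHL9 to miR-137 in RNASeq differed between U343 and U251 by the test of the difference itself (edgeR, adjusted p = 0.025 and 0.0138). The log2 differences, U343 minus U251, were -0.564 for MTAP and -0.76 for KLHL9. In U251 both miR-137 libraries were above both controls for either gene. In U343 both miR-137 libraries were below both controls for MTAP and above both for KLHL9. The log2 fold changes there were -0.09 and 0.10, with adjusted p = 0.521 and 0.51 (edgeR). Of 8 fits without 1 library each, the call was lost in 6 for MTAP and in 4 for KLHL9. With 2 libraries per group, no single library could be tested for standing apart from its group.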

How the results depend on the processing

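MTAP and KLHL9 kept their direction under DESeq2, upper-quartile scaling, no filter and the replicate block in the miR-137, PABP and interaction comparisons and between the lines in RNASeq, whereas the lines in RIPSeq were fitted once. With RIPSeq in place of RNASeq controls the difference of KLHL9 between the lines reversed to 0.42, and 1 of the 4 genes was called instead of 2. Upper-quartile scaling moved the median of all genes to 0.16 in U251 RNASeq. The number of the 4 genes called became 0 in U343 RIPSeq under DESeq2, no filter and the study's Fisher rule with its mirror for rises (1 in the report), 0 in U251 RNASeq (2 in the report) and 1 in U251 RIPSeq (0 in the report) under that rule, and 0 for PABP in U251 with no filter (1 in the report). Leaving out 1 library at a time gave 1 to 2 calls in U251 RNASeq, 0 to 2 in U251 RIPSeq, 0 in U343 RIPSeq, 2 to 3 between the lines, 0 to 2 for PABP in U251, and 0 to 2 for the interactions in RNASeq and in RIPSeq. It gave log2 values from -1.02 to 0.20 for CDKN2B and from -0.016 to 0.135 for MTAP in U343 RIPSeq, and from -0.20 to 0.65 for CDKN2B with PABP in U343. Where this left 1 library in a group, that library was assumed to vary like the others. Between the lines, the call beyond MTAP and KLHL9 was that of CDKN2B, in the fits without a U251 control library. CDKN2B had 0 reads in U251 and passed the filter there through the U343 libraries alone, so that call is no support. With the replicate number as a block, the counts of the 4 genes called did not change (2, 0, 0 and 1 for miR-137 in U251 RNASeq and RIPSeq and in U343 RNASeq and RIPSeq), while the calls over all genes went from 170 to 802 in U251 RIPSeq, from 1855 to 4036 for PABP in U251 and from 524 to 119 for the RIPSeq interaction. A crossed pairing for PABP in U343, chosen after seeing the data as were the alternatives for the interactions, gave 1 call of the 4 genes and 8069 over all genes. Over all genes, DESeq2 and no filter gave 841 and 59 calls in U251 RIPSeq and 2973 and 100 for PABP in U251, and DESeq2 gave 1839 for the RIPSeq interaction. The cause of these changes was not tested. Depth limits CDKN2B, with at most 18 reads in a library.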

Other observations

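Another inhibitor of the family, CDKN2C (p18INK4c), named after its values were seen, had 0 reads in all 16 libraries, as had 180 of the 20314 genes counted in both lines (0.886%). The fourth, CDKN2D (p19INK4d), had 46 to 502 reads per library in U251 and 331 to 788 in U343. CDKN1B, which encodes the CDK inhibitor p27, was at 32.8 to 72.5 CPM in U251 and at 98.8 to 178 CPM in U343.

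IFNB1, the interferon beta gene of the same region, was also named after its values were seen. In U251 RIPSeq it had 1 and 3 reads in controls and 299 and 276 reads with miR-137 (ratio 141, exact 95% interval from 54.6 to 518). In U343 RIPSeq it had 1 and 0 reads in controls and 618 and 919 reads with miR-137 (ratio 1690, interval from 302 to 66700). IFNB1 passed the filter on low counts through the miR-137 libraries alone, so its fitted calls are not given. In U343 RNASeq the counts were 1 and 1 in controls and 1 and 817 with miR-137, so 1 library held nearly all reads. In U251 RNASeq they were 1 and 1 in controls and 5 and 7 with miR-137 (ratio 8.33, interval from 1.85 to 76.6).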
